A study of Homo sapiens with 30 samples.

Results

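Krüppel-like factors (KLFs) are DNA-binding proteins whose C-terminal zinc fingers read GC-rich and CACCC-type promoter sequences. The 8 genes described here are KLF2, KLF4, KLF5, KLF6, KLF9, KLF10, KLF11 and KLF13, taken by gene symbol from a count table of 60664 genes. Each symbol matched 1 row, so all 8 were found. RNA came from a pair of human embryonic kidney (HEK293) lines of the Flp-In T-REx type, in which tetracycline switches on a transgene: 1 line makes GFP-tagged wild-type TIA1a (WT) and the other GFP-tagged TIA1a with the Welander distal myopathy mutation (WDM). TIA1 is an RNA-binding protein of stress granules, the RNA and protein assemblies that form when translation stops under stress. Cytosol RNA was sequenced from cells of each line that were untreated, given tetracycline, or given tetracycline and then 0.5 mM sodium arsenite for 60 min. Granule-fraction RNA, pulled down through the GFP tag from a high-speed pellet, was sequenced from both lines with tetracycline, with and without arsenite. Each of the 10 groups had 3 libraries, 30 in all. Each genotype is represented by 1 line, so the genotype cannot be told apart from other differences between the lines. The labels do not say whether replicates were separate cultures, so p-values measure only the spread between these libraries, which may be technical.

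Several KLF genes are known as rapid-response genes. KLF2 and KLF4 are induced in vessel walls through the kinases MEK5 and ERK5 and the MEF2 factors, and KLF4 and KLF5 act in epithelia, where they are linked to differentiation and to proliferation. KLF6 is a broadly expressed factor first studied as an injury-response gene. KLF10 and KLF11 are the TGF-beta-inducible early genes and repress transcription through the SIN3A corepressor, which KLF9 and KLF13 also bind; KLF9 is a known glucocorticoid target and KLF13 a known regulator of the chemokine gene CCL5.

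Total counts ran from 5906167 to 27419145 per library. A count of 3, used here as the detection floor, corresponds to 0.103 to 0.511 CPM (counts per 1000000 counts of a library, after scaling). TIA1 itself had 3 counts over all 30 libraries, so its induction could not be checked from this table. The labelled epithelial type was checked on 5 epithelial markers, whose summed level was 309 to 610 CPM in cytosol libraries and 84.7 to 166 CPM in granule libraries. Of 4 neuronal-type genes known from HEK293 cells, 2 exceeded 1 CPM on average, and their list summed to 102 to 205 CPM in cytosol. The 5 leukocyte markers summed to 0.296 to 1.58 CPM and the 5 endothelial markers to 0.409 to 1.69 CPM in cytosol, with no marker of either list above 1 CPM on average. Fibroblast markers summed to 5.59 to 10.4 CPM in cytosol, with 3 of 5 above 1 CPM. In granule libraries the leukocyte list summed to 0.281 to 1.34 CPM with 0 of 5 above 1 CPM on average, the endothelial list to 1.55 to 3.58 CPM with 1 of 5, and the fibroblast list to 4.51 to 9.23 CPM with 2 of 5.

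Messages of early-response genes often carry AU-rich elements, the class of sequence that TIA1 and the ZFP36 proteins bind. The pentamer AUUUA was therefore counted in the 3′ untranslated region (UTR) of each gene's longest coding transcript in GENCODE 44. All 8 genes held at least 1 copy, as did 75.2% of 12882 coding genes tested in cytosol, and 7 of 8 held at least 3, against 49.9%. At least 5 copies were found in 5 of 8, against 36.0%, and at least 10 in 0 of 8, against 16.7%. The count was 8 in KLF9, 6 in KLF6 and KLF11, 5 in KLF5 and KLF13, 4 in KLF2, 3 in KLF10 and 2 in KLF4, where the median of all genes was 2. Relative to length the density ran from 0.893 per kb in KLF13, whose UTR is 5600 bases long, to 3.03 per kb in KLF5. The median of all genes was 1.73 per kb. The stretches below show, for 7 of the 8 genes, the 25 bases of the UTR that hold the most copies, written as DNA with the pentamer in capitals; none is shown for KLF10. They show that copies stand alone in 5 genes and that KLF11 and KLF13 each have a pair within 25 bases, so that none of these windows holds overlapping copies.
KLF2, chr19:16327103-16327127, plus strand: tgtgactggtATTTAttggacccag
KLF4, chr9:107485149-107485173, minus strand: tccgatcaacATTTAtgacctaagt
KLF5, chr13:73076202-73076226, plus strand: aggcaccatcATTTAatgtgacagt
KLF6, chr10:3778804-3778828, minus strand: taagctgtgtATTTAcaaatataac
KLF9, chr9:70387067-70387091, minus strand: cagagtctgaATTTAtactaatcaa
KLF11, chr2:10053941-10053965, plus strand: ccagcATTTAcctttATTTAaatga
KLF13, chr15:31376345-31376369, plus strand: cccATTTAaaaaaggtcATTTAgtc
Coordinates are GRCh38. The presence of a pentamer is a description of the sequence and was not tied to a binding measurement.

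Promoters were compared over the 300 bases from 250 before to 50 after each RefSeq start (GRCh38.p14), which were held for 7 of the 8 genes. The GC box GGGCGG, the kind of site that this protein family reads, was present on either strand in 6 of 7 genes and in 45.0% of all 35116 windows. CCAAT was present in KLF5, KLF6, KLF9 and KLF13 and in 34.6% of windows. The core TGACG of the cyclic-AMP response element (CRE) was found in KLF4, KLF5, KLF11 and KLF13 and in 24.6% of windows. A full CRE, TGACGTCA, which contains that core, was found only in KLF11 among the 7, and in 1.85% of all windows. A MEF2 site, searched by name, was found only in KLF2 among the 7, and in 0.572% of windows. The AP-1 site TGANTCA (7.71% of windows), the heat shock element GAANNTTC (6.77%) and the CArG box (1.29%) had no match in the 7 genes. These letters say nothing of whether a factor was bound. The 2 rarest matches are printed with their site in capitals, each in 100 bases upstream of the start.
KLF2, chr19:16324656-16324755, plus strand, MEF2 site: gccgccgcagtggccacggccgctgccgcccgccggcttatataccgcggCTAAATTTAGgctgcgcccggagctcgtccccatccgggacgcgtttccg
KLF11, chr2:10043995-10044094, plus strand, CRE: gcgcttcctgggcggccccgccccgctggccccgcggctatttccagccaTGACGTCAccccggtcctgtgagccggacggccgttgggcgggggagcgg
The KLF2 site began 120 bases before the start and the KLF11 site 176 bases before the second of its 2 listed starts. KLF2 was the least abundant of the 8 genes in every group, and KLF11 was of middle abundance, as described next.

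In untreated WT cytosol, levels were ordered per kilobase of exon, since genes differ in length. The length is that of all annotated exons, 9429 bases for KLF13 and 3821 for KLF10, whose longest coding transcripts have 6845 and 3659. The order of KLF10 and KLF13, and of KLF5 and KLF6, depends on that choice. KLF9 was highest at 8.23 ± 0.395 CPM per kb (SD, n = 3), and KLF10 followed at 4.72 ± 0.34. KLF13 (3.85 ± 0.188), KLF11 (3.57 ± 0.387) and KLF5 (3.13 ± 0.2) came next. KLF11 did not differ from either neighbour by more than their spread, since the ranges of 1 SD around the means overlapped. KLF6 was at 2.62 ± 0.207 and KLF4 at 1.25 ± 0.214 CPM per kb. KLF2 was at 0.153 ± 0.121 CPM per kb, from 4, 1 and 8 counts, which straddle the detection floor. Apart from values given per kilobase, each level below is in CPM of 1 gene compared with itself, and is not length-scaled.

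**Figure D1:**
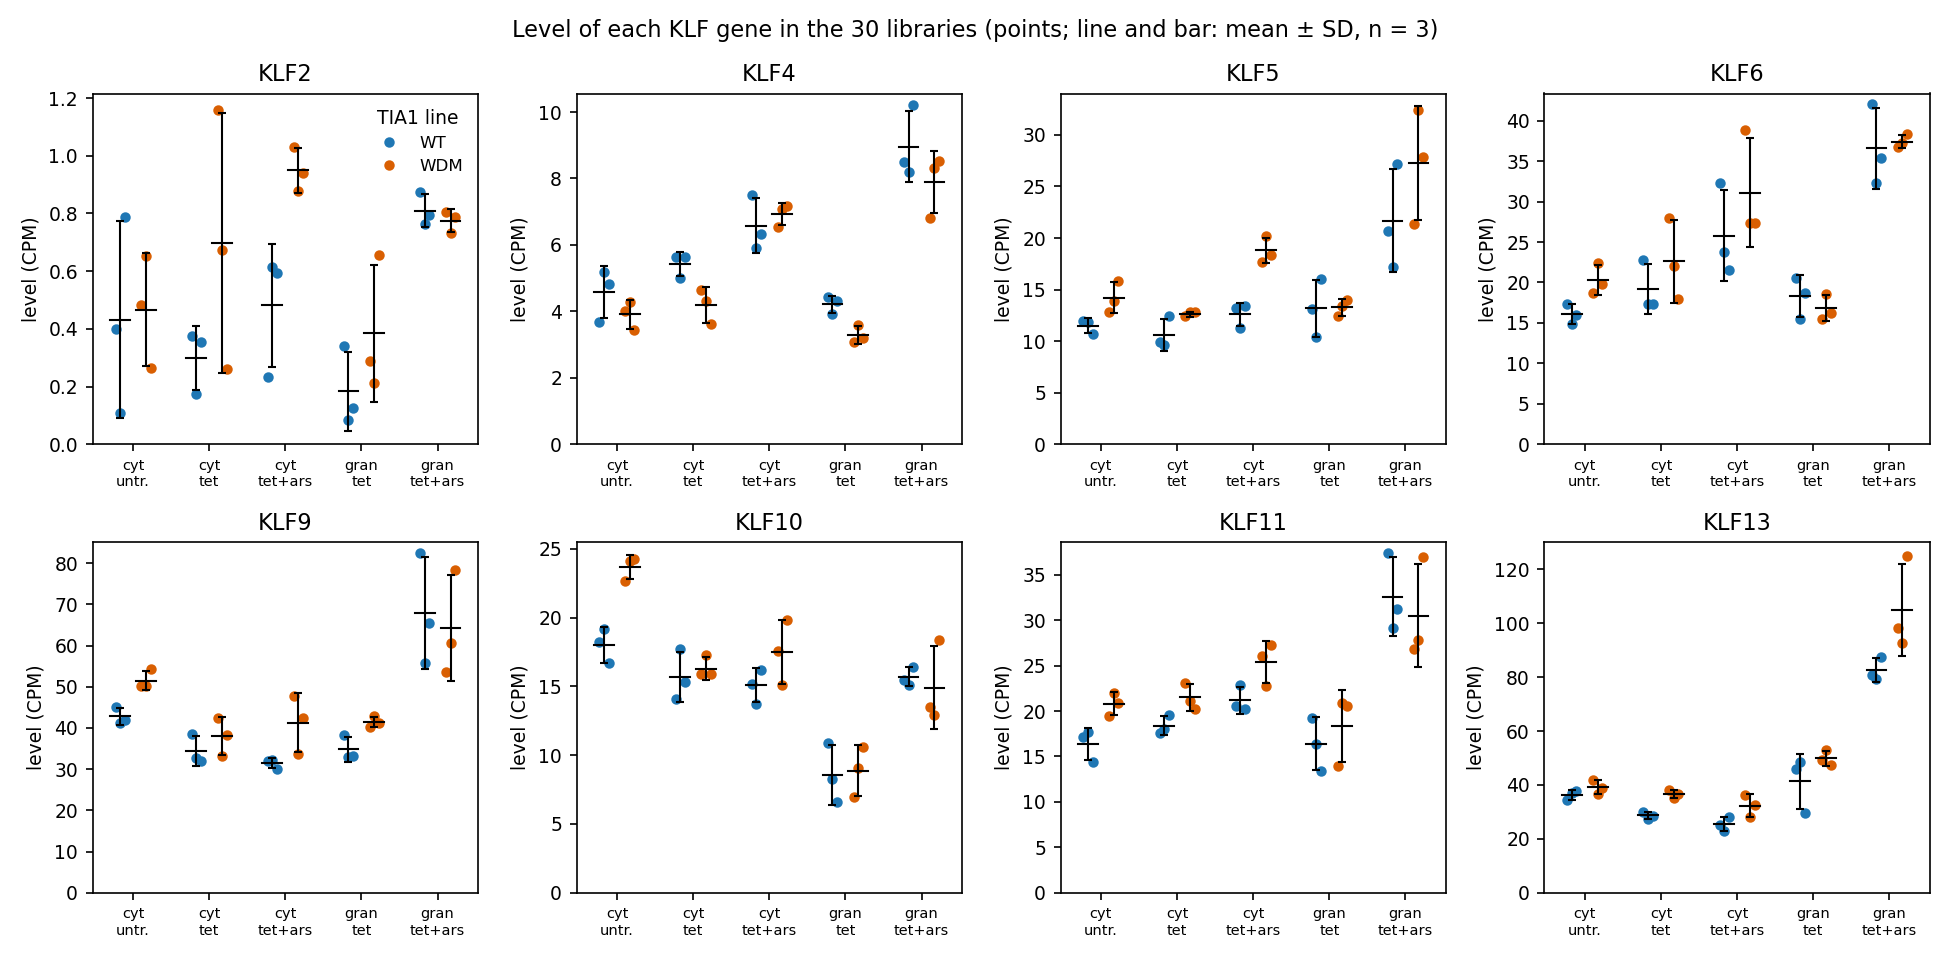
Level of each KLF gene in CPM (vertical axis, linear, own scale per gene) in the 5 conditions of the WT and WDM lines; points are libraries, and the line and bar are the mean and SD of 3. In all 8 genes each granule library with arsenite lies above each granule library of the same line without it, while the cytosol groups move less and in different directions.

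Arsenite raised the KLF messages in the granule fraction of both lines. In the WT line all 8 genes were called higher with arsenite (edgeR adjusted p under 0.05), against 16.5% of all genes tested. In the WDM line 7 of 8 were called higher, against 18.7%. The median log2 fold change of the 8 genes was 1.11 in WT and 1.07 in WDM, and the median of all genes was -0.03 and 0.01. For all 8 genes the arsenite libraries did not overlap the tetracycline libraries in either line, a pattern found in 17.9% of all genes in WT and 20.7% in WDM. KLF2 entered the test only through its arsenite libraries, so the counts without it are 7 of 7 in both lines.

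KLF4, which had the largest granule change in the WDM line, stood at 4.43, 3.92 and 4.3 CPM in the WT granule libraries without arsenite and at 8.51, 8.19 and 10.2 CPM with it. In WDM granules it went from 3.08, 3.58 and 3.21 CPM to 6.81, 8.32 and 8.54 CPM. The log2 fold change was 1.20 (SE 0.212, adjusted p = 0.0001608) in WT and 1.34 (SE 0.2138, adjusted p = 2.99e-05) in WDM. KLF2 had 2, 1 and 3 counts in WT granules without arsenite and 16, 19 and 22 counts with it. In CPM this was 0.34, 0.0834 and 0.124 against 0.873, 0.763 and 0.795. Summed over the 3 libraries and scaled to library size, the ratio was 5.63, with a 95% counting interval (exact binomial) of 2.43 to 16.0. In WDM granules KLF2 had 3, 3 and 10 counts without arsenite and 20, 18 and 23 counts with it, a ratio of 1.93 (1.1 to 3.59), and the gene was not called (adjusted p = 0.05906). Without WDM tetracycline replicate 3, which held the 10 counts, KLF2 was called in WDM as well (adjusted p = 0.02422). Same-numbered WDM granule libraries deviated together. With the replicate number as a block within these groups, chosen after seeing the data, KLF2 had 1.06 (edgeR adjusted p = 0.04975). Neither call adds to the 7 of 8 in WDM, since KLF2 entered the test only through its arsenite libraries. The counting intervals cover counting error only, since reads were counted and may include PCR copies. The ratios, intervals and WT call of KLF2 use the arsenite libraries through which it entered. They are therefore no sign of a rise in either line.

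KLF5, an epithelial growth regulator, was at 13.1, 10.4 and 16.0 CPM in WT granules without arsenite and at 20.7, 17.2 and 27.2 CPM with it. Its log2 fold change of 0.82 (SE 0.2027, adjusted p = 0.003382) was the smallest of the 8 in WT. In WDM granules KLF5 went from 12.4, 13.4 and 14.0 CPM to 21.4, 32.4 and 27.9 CPM, a log2 fold change of 1.12 (SE 0.2006, adjusted p = 0.0001174). The groups were separate in both lines, and in CPM the arsenite libraries were spread more widely than the controls. In WT this spread grew about with the mean, from 13.2 ± 2.77 CPM without arsenite to 21.7 ± 5.04 CPM with it (SD, n = 3). In WDM it grew more than the mean, from 13.3 ± 0.812 CPM to 27.3 ± 5.53 CPM (SD, n = 3). KLF6 was at 20.6, 15.5 and 18.7 CPM in WT granules and rose to 42.0, 32.3 and 35.4 CPM, and in WDM granules it went from 15.5, 18.6 and 16.2 to 36.7, 37.3 and 38.3 CPM. Its log2 fold changes were 1.11 (SE 0.1724, adjusted p = 4.138e-05) in WT and 1.24 (SE 0.1713, adjusted p = 5.431e-06) in WDM. The WDM arsenite libraries of KLF6 lay close together, at 37.4 ± 0.828 CPM (SD, n = 3).

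The TGF-beta-inducible pair rose as well. KLF10 was at 10.9, 8.25 and 6.57 CPM in WT granules without arsenite and at 15.5, 15.1 and 16.4 CPM with it, a log2 fold change of 1.02 (SE 0.2159, adjusted p = 0.0008994). In WDM granules KLF10 went from 6.93, 9.07 and 10.6 CPM to 13.5, 12.9 and 18.4 CPM, a log2 fold change of 0.83 (SE 0.2099, adjusted p = 0.003124). KLF11 went from 19.2, 16.4 and 13.4 CPM to 37.4, 29.1 and 31.2 CPM in WT granules, and from 13.9, 20.9 and 20.5 to 26.8, 27.8 and 37.0 CPM in WDM granules. This gave log2 fold changes of 1.12 (SE 0.1993, adjusted p = 0.0001758) and 0.81 (SE 0.1946, adjusted p = 0.002013). Groups were separate for both genes, and the step between their control and arsenite libraries was narrower in WDM.

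Of the SIN3A-binding members, KLF13 stood at 45.8, 48.6 and 29.7 CPM in WT granules without arsenite and at 80.9, 79.3 and 87.6 CPM with it, a log2 fold change of 1.11 (SE 0.1784, adjusted p = 6.261e-05). In WDM granules KLF13 went from 49.1, 53.1 and 47.5 CPM to 98.2, 92.7 and 125.0 CPM, a log2 fold change of 1.16 (SE 0.1765, adjusted p = 1.766e-05). One WT control library was low and 1 WDM arsenite library was high, but the groups stayed apart. KLF9 went from 38.3, 33.0 and 33.1 CPM to 82.5, 55.8 and 65.5 CPM in WT, and from 40.3, 42.9 and 41.1 CPM to 53.5, 60.7 and 78.4 CPM in WDM. Its log2 fold changes were 1.08 (SE 0.1788, adjusted p = 8.638e-05) and 0.71 (SE 0.1759, adjusted p = 0.002462), the latter the smallest of the 8 in WDM. Whether any gene's granule change differed between the lines was tested directly, and no member was called, against 0% of all genes. By unadjusted p under 0.05 only KLF2 passed (difference -1.51, adjusted p = 0.3912), DESeq2 also called none, and 2329 genes of the table had an unadjusted p under 0.05.

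Levels in CPM are shares of a library, and other classes of RNA moved in the same granule libraries. Of 5 abundant cytosolic mRNAs, 3 fell in WT granules and 4 in WDM granules with arsenite, against 14.1% and 17.7% of all genes. Their medians were -0.87 and -1.26. EEF1A1, the translation elongation factor, fell by 1.00 in WT and 1.44 in WDM on the log2 scale. The nuclear RNA MALAT1 fell by 0.82 and 0.62, while the other 2 of 3 nuclear RNAs tested were not called in either line, and the medians of that list were -0.44 in WT and 0.25 in WDM. Of the epithelial markers, the cadherin gene CDH1 rose by 0.97 in WT and the adhesion gene EPCAM fell by 0.57 in WDM. The part of these shifts in the KLF change was not tested.

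**Figure D2:**
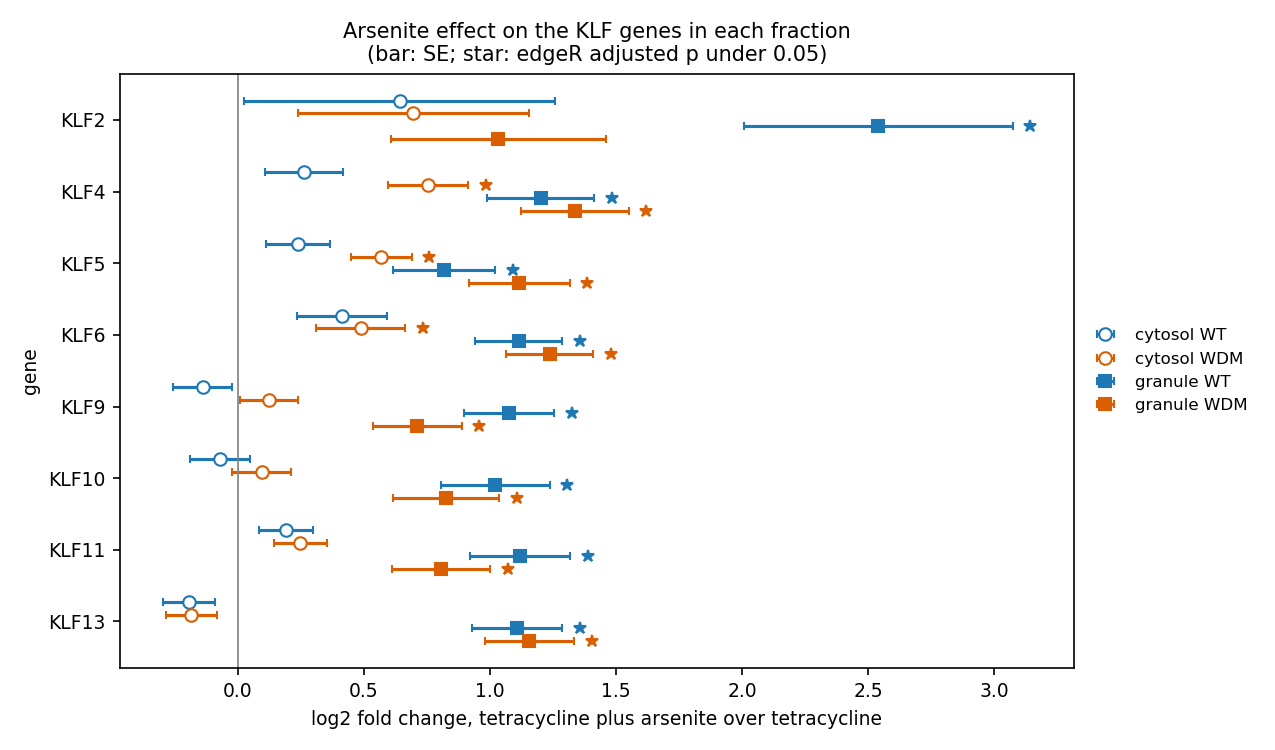
Log2 fold change with arsenite (horizontal axis; bar is the SE) for each KLF gene in cytosol (open circles) and granule fraction (squares) of both lines, with a star where the edgeR adjusted p was under 0.05. All 8 genes have a star in WT granules and 7 in WDM granules, while the cytosol has 3 stars, for KLF4, KLF5 and KLF6 in the WDM line.

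**Figure D3:**
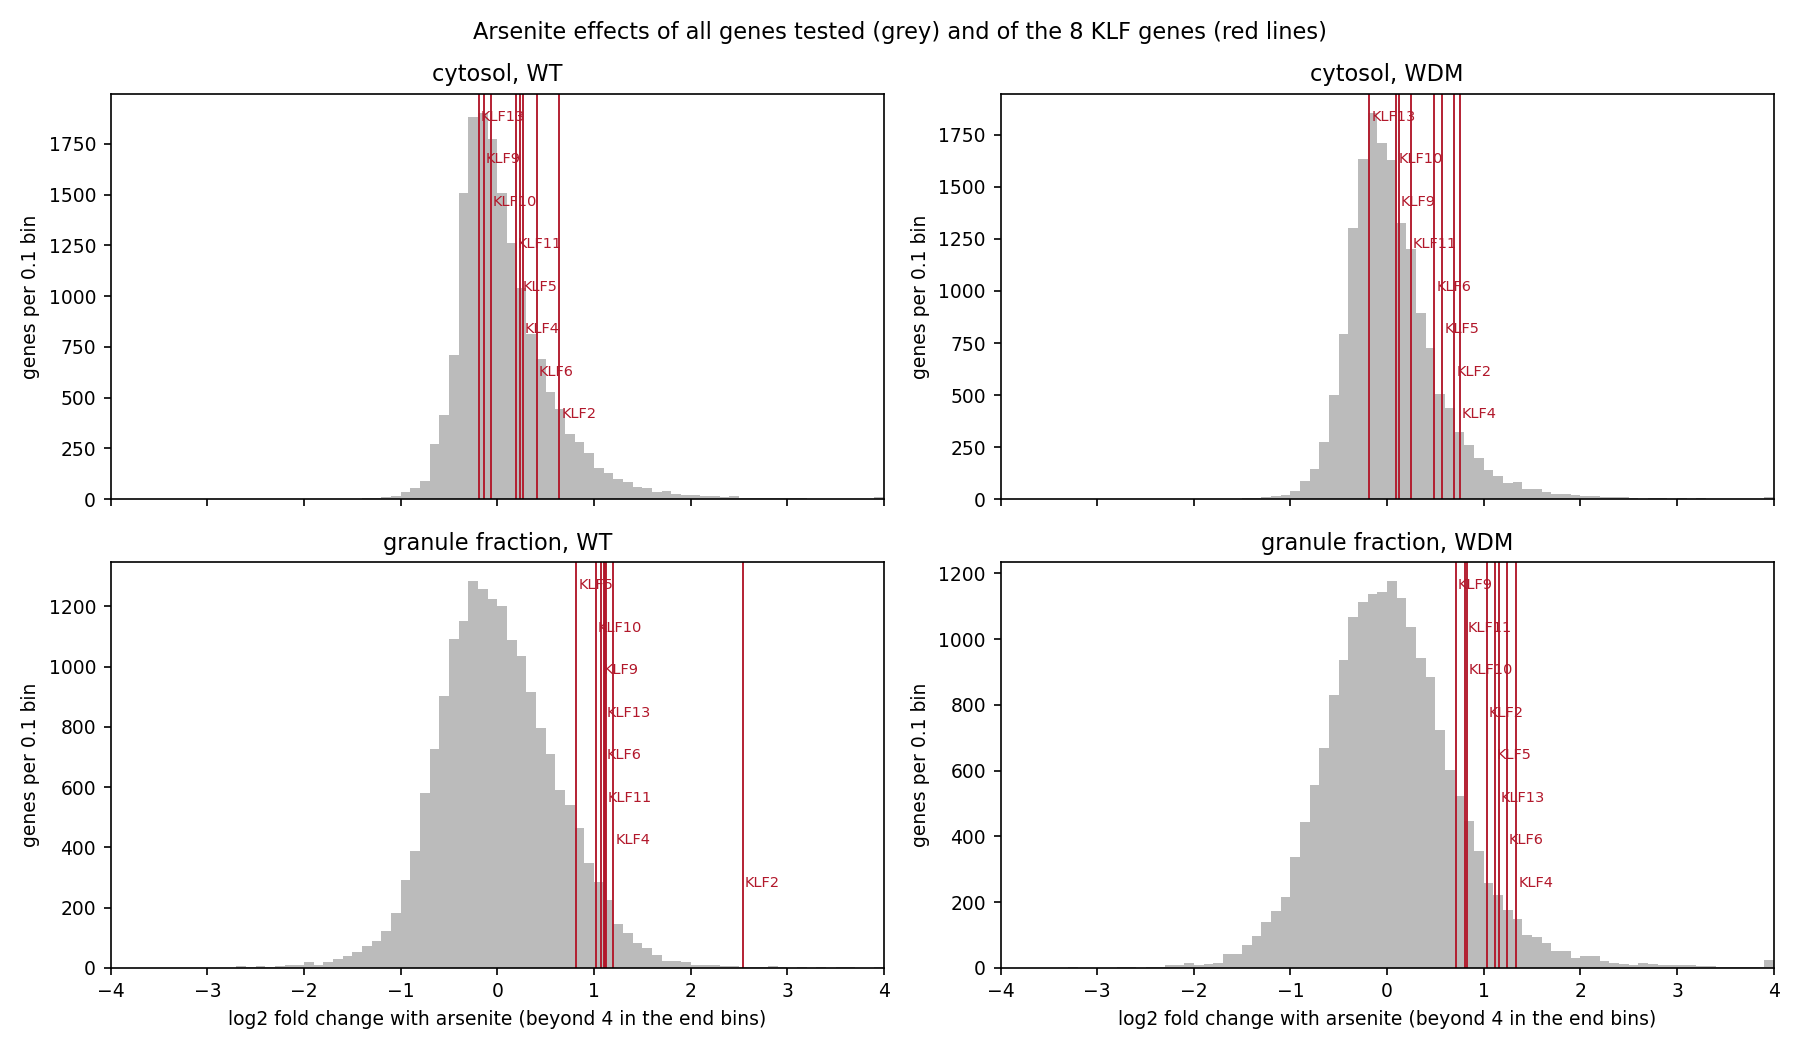
Number of genes (vertical axis) by log2 fold change with arsenite (horizontal axis, bins of 0.1) for all genes tested, with the 8 KLF genes as red lines. In the granule panels all 8 lines lie above the upper quartile of all genes, which is 0.40 in WT and 0.44 in WDM, while in the cytosol panels they spread to both sides of 0.

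In cytosol fewer members were called. In the WT line no member was called with arsenite over tetracycline, against 29.0% of all genes, and the median log2 fold change of the 8 was 0.22. KLF6 alone had an unadjusted p under 0.05, DESeq2 called none, and 6960 genes of the table had an unadjusted p under 0.05. KLF6 was at 22.8, 17.4 and 17.4 CPM with tetracycline and at 32.3, 23.8 and 21.5 CPM with arsenite, a log2 difference of 0.41 (adjusted p = 0.08843). The ranges overlapped, because tetracycline replicate 1 (22.8 CPM) lay above arsenite replicate 3 (21.5 CPM). Replicate 1 was the highest library of both groups. For KLF4 (0.26) and KLF11 (0.19) every arsenite library exceeded every tetracycline library, 2 of 8 members against 19.9% of all genes, and neither was called. KLF2 (0.64), KLF5 (0.24), KLF9 (-0.14), KLF10 (-0.07) and KLF13 (-0.19) were not called. KLF6 was called without WT tetracycline replicate 1 (adjusted p = 0.02857) or without WT arsenite replicate 3 (adjusted p = 0.04874).

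In WDM cytosol 3 of 8 members were called higher with arsenite, against 14.1% of all genes, and none lower. KLF4 was at 4.64, 4.32 and 3.61 CPM with tetracycline and at 6.54, 7.08 and 7.16 CPM with arsenite, a log2 fold change of 0.75 (SE 0.1594, adjusted p = 0.002083). KLF5 went from 12.4, 12.8 and 12.8 CPM to 17.7, 20.2 and 18.4 CPM, a log2 fold change of 0.57 (SE 0.1201, adjusted p = 0.002061). For both genes every arsenite library exceeded every tetracycline library, 2 of 8 members against 18.4% of all genes. KLF6 went from 28.0, 22.0 and 17.9 CPM to 38.9, 27.3 and 27.3 CPM, a log2 fold change of 0.49 (SE 0.1764, adjusted p = 0.04445), and its groups overlapped. That call was lost without WDM arsenite replicate 1, WDM tetracycline replicate 2 or WDM tetracycline replicate 3 (adjusted p 0.1183 to 0.2451), and with only the compared groups in the fit (0.1078). KLF11 had a log2 difference of 0.25 (adjusted p = 0.07913) and was called without WDM arsenite replicate 2 (0.03426). KLF9 (0.12), KLF10 (0.10) and KLF13 (-0.18) were not called, and KLF2 had 21 counts with tetracycline and 45 with arsenite, a ratio of 1.69 (0.983 to 2.98). The test of whether the arsenite effect in cytosol differed between the lines called no member, against 0% of all genes. Its largest member difference with an unadjusted p under 0.05 was that of KLF4, at 0.49 (adjusted p = 0.9999). DESeq2 called none, and 331 genes had an unadjusted p under 0.05.

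Scaling bears on the cytosol values. With library size alone in place of TMM factors, the median of all genes in the WT arsenite comparison moved from -0.02 to 0.11, and the share of calls that were higher moved from 47.1% to 76.7%; in WDM it moved from 48.8% to 66.8%. KLF5 (0.37), KLF6 (0.54) and KLF11 (0.33) were then called higher in WT cytosol. The negative WT and WDM values of KLF13 were not called under that scaling either.

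Set against untreated cells, which differ from the arsenite groups by tetracycline as well, the family went both ways in cytosol. KLF4, KLF6 and KLF11 were called higher and KLF9 and KLF13 lower in both lines. In WT 3 of 8 were higher and 2 lower, against 15.2% and 17.1% of all genes. In WDM 4 were higher, with KLF5 added, and 3 lower, with KLF10 added, against 19.0% and 20.0%. The split of all calls was 47.1% higher in WT and 48.7% in WDM, and 64.3% and 58.9% with library size alone.

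Of the genes that rose, KLF4 was at 3.69, 5.19 and 4.83 CPM in untreated WT cytosol and at 7.5, 5.9 and 6.33 CPM after tetracycline and arsenite, a log2 fold change of 0.50 (adjusted p = 0.02396). In WDM its untreated libraries were at 4.01, 4.28 and 3.44 CPM and the log2 fold change was 0.81 (adjusted p = 0.0005312). KLF6 was at 17.4, 14.9 and 16.0 CPM in untreated WT and at 18.7, 22.4 and 19.8 CPM in untreated WDM cytosol, and rose by 0.66 (adjusted p = 0.01157) and 0.61 (adjusted p = 0.009859). KLF11 rose from 17.1, 17.7 and 14.4 CPM to 20.6, 22.9 and 20.2 CPM in WT (0.35, adjusted p = 0.02109). In WDM it went from 19.4, 22.0 and 20.9 CPM to 26.0, 22.8 and 27.3 CPM (0.28, adjusted p = 0.03643). The treated libraries of all 3 genes lay above the untreated ones in each line. In WT these were 3 of 8 members, against 27.2% of all genes, and in WDM KLF2 and KLF5 made them 5 of 8, against 26.8%. KLF2 had 7, 9 and 3 counts in untreated WDM cytosol and 17, 15 and 13 after both agents. It would not have passed the low-count filter in cytosol without those arsenite libraries, so its place in this count is no sign of a rise.

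The genes that fell, KLF9, KLF10 and KLF13, had the highest means per kilobase in untreated WT cytosol, although KLF13 and KLF11 overlapped there within 1 SD. With all annotated exons as the length, this order did not hold in untreated WDM cytosol. There KLF11, which rose, was at 4.52 ± 0.279 and KLF13 at 4.15 ± 0.261 CPM per kb (SD, n = 3). The order of KLF11 and KLF13 there depends on the choice of length. KLF13 was at 34.3, 37.1 and 37.6 CPM in untreated WT cytosol and at 25.2, 22.8 and 28.0 CPM after tetracycline and arsenite, and fell by 0.54 on the log2 scale (SE 0.1027, adjusted p = 0.0006708). In WDM it fell by 0.28 (adjusted p = 0.02845), from 41.7, 36.8 and 39.0 CPM to 36.3, 28.0 and 32.6 CPM. KLF9 was at 45.2, 41.3 and 42.0 CPM in untreated WT cells and at 32.0, 32.3 and 30.1 CPM after both agents, and fell by 0.47 (adjusted p = 0.005096). In WDM cytosol KLF9 fell by 0.33 (adjusted p = 0.02692), from 50.1, 50.2 and 54.2 CPM to 47.8, 33.6 and 42.5 CPM. KLF10 fell by 0.45 in WDM (adjusted p = 0.004078), from 22.7, 24.1 and 24.3 CPM to 17.6, 15.1 and 19.8 CPM. In WT it was at 18.2, 19.2 and 16.7 CPM untreated and 15.2, 13.7 and 16.2 CPM after both agents (-0.28, adjusted p = 0.07468). The untreated libraries of all 3 genes lay above the treated ones in both lines, 3 of 8 members in each, against 27.0% of all genes in WT and 26.3% in WDM.

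Some of these calls were lost when 1 library was left out, which also leaves fewer libraries to test. In WT, KLF4 was lost without untreated replicate 1 or arsenite replicate 1 (adjusted p 0.1156 to 0.133). KLF6 was lost without untreated replicate 2 or arsenite replicate 1 (0.05104 to 0.07728), and KLF11 without untreated replicate 3 or arsenite replicate 2 (0.09331 to 0.1192). In WDM, KLF5 was lost without untreated replicate 1 (0.06554), KLF6 without arsenite replicate 1 (0.06573), and KLF9 without untreated replicate 3 or arsenite replicate 2 (0.09104 to 0.1594). KLF11 in WDM was lost without any one of untreated replicates 1 and 3 and arsenite replicates 1 and 3 (0.08056 to 0.1441). KLF13 in WDM was lost without any one of untreated replicates 1 and 3 and arsenite replicates 2 and 3 (0.05127 to 0.1477). The WT calls of KLF9 and KLF13 and the WDM calls of KLF4 and KLF10 remained without any one library.

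Tetracycline alone lowered KLF9 and KLF10 in the WDM line, 2 of 8 members against 3.23% of all genes called lower. KLF10 went from 22.7, 24.1 and 24.3 CPM untreated to 15.9, 17.3 and 15.9 CPM with tetracycline, and fell by 0.54 on the log2 scale (SE 0.1161, adjusted p = 0.007991). KLF9 fell by 0.45 (SE 0.1144, adjusted p = 0.02215), from 50.1, 50.2 and 54.2 CPM to 42.4, 33.3 and 38.3 CPM. The KLF9 call was lost without any one of the 3 untreated WDM libraries or of WDM tetracycline replicates 2 and 3 (adjusted p 0.05801 to 0.09306). In the WT line no member was called, against 5.31% of all genes, and 2 members had an unadjusted p under 0.05. These were KLF13, at 30.1, 27.5 and 28.5 CPM with tetracycline (-0.35, adjusted p = 0.05059), and KLF9, at 38.5, 32.6 and 31.9 CPM (-0.33, adjusted p = 0.1014). Both were called without WT tetracycline replicate 1 (0.03721 and 0.03557), and DESeq2 called KLF13. The tetracycline effects of the lines did not differ by test for any member, against 0.018% of all genes called. No member had an unadjusted p under 0.05 there, and DESeq2 called none. The arsenite and tetracycline comparisons with untreated cells share the untreated libraries.

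The members called between the lines in cytosol were higher in WDM. Among untreated cells KLF10 was called, 1 of 8 against 4.19% of all genes. WT libraries stood at 18.2, 19.2 and 16.7 CPM and WDM libraries at 22.7, 24.1 and 24.3 CPM, a log2 difference of 0.39 (SE 0.1164, adjusted p = 0.03415). The call was lost without any one of those 6 libraries (adjusted p 0.0609 to 0.1722). For KLF5, KLF6, KLF9, KLF10 and KLF11 every untreated WDM library lay above every untreated WT library, 5 of 8 members against 22.0% of all genes. With tetracycline KLF13 was called, 1 of 8 against 5.8% of all genes, at 30.1, 27.5 and 28.5 CPM in WT and 38.3, 35.2 and 36.7 CPM in WDM (0.36, adjusted p = 0.02343). That call was lost without WT tetracycline replicate 2 or 3 or WDM tetracycline replicate 1 or 3 (0.07583 to 0.08671), and with only the compared groups in the fit. Every WDM tetracycline library lay above every WT one for KLF11 and KLF13 alone, 2 of 8 members against 10.9% of all genes. For KLF4 every WDM library lay below, at 4.64, 4.32 and 3.61 CPM against 5.63, 5.01 and 5.65 CPM in WT, 1 of 8 against 12.1% (-0.40, adjusted p = 0.1248, not called).

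With arsenite, 3 of 8 members were called higher in WDM cytosol, against 4.98% of all genes. KLF5 was at 13.2, 11.3 and 13.4 CPM in WT and 17.7, 20.2 and 18.4 CPM in WDM (0.59, SE 0.1186, adjusted p = 0.001795), and remained called without any one library. KLF9 was at 32.0, 32.3 and 30.1 CPM against 47.8, 33.6 and 42.5 CPM (0.41, adjusted p = 0.02379). KLF13 was at 25.2, 22.8 and 28.0 CPM against 36.3, 28.0 and 32.6 CPM (0.37, adjusted p = 0.02119), and its lowest WDM library was level with its highest WT library. The KLF9 call was lost without any one WT arsenite library or WDM arsenite replicate 1 or 3 (0.06176 to 0.1727). KLF13 was lost without WT arsenite replicate 1 or 2 or WDM arsenite replicate 1 or 3 (0.05756 to 0.1522). Leaving out WDM arsenite replicate 2 added KLF11 (0.03602). In the granule fraction no member differed between the lines, against 5.55% of all genes without arsenite and 7.95% with it. Unadjusted p was under 0.05 for KLF2 without arsenite and for no member with it, DESeq2 called none, and 3167 and 4450 genes of the table had an unadjusted p under 0.05.

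The granule fraction was next compared with cytosol within each line. Most genes differ between the fractions, so member counts are read against a high background. Nuclear RNAs were higher in the granule fraction. Under tetracycline alone their median log2 difference was 3.6 in WT and 3.13 in WDM, with 3 of 3 called. Arsenite groups had smaller medians, 1.68 in WT and 1.94 in WDM, with 2 of 3 called. All 5 abundant cytosolic mRNAs were called lower in each of these comparisons, with medians from -2.64 to -1.8. The bearing of these classes on the KLF values was not tested. Without arsenite, KLF13 was higher in granules and KLF10 lower in both lines. In WT this was 1 of 8 in each direction, against 39.5% of all genes higher and 36.2% lower. In WDM 1 was higher, against 35.8%, and 2 were lower, KLF6 being the second, against 35.3%. KLF10 was at 14.1, 17.7 and 15.3 CPM in WT cytosol and 10.9, 8.25 and 6.57 CPM in WT granules (-0.94, SE 0.1864, adjusted p = 4.915e-05). In WDM its log2 difference was -0.90 (adjusted p = 7.243e-05), with all granule libraries below all cytosol libraries in both lines. KLF4 showed the same separation without a call, so it held for 2 of 8 members in each line, against 36.8% of all genes in WT and 37.0% in WDM. KLF13 was higher in granules by 0.50 in WT (adjusted p = 0.004398) and 0.41 in WDM (adjusted p = 0.01727). The KLF13 call was lost without granule replicate 2 in WT (0.05823), and without cytosol or granule replicate 2 in WDM (0.05972 to 0.06997). KLF6 in WDM (-0.45, adjusted p = 0.03125) was lost without cytosol replicate 1 or granule replicate 1 or 3 (0.07596 to 0.2165). Of the values not called with all libraries, KLF5 in WT (0.31) was called without WT granule replicate 2 (0.03881). KLF2 in WDM (-0.60) was called without WDM cytosol replicate 3 (0.04366). KLF2 had only 9, 7 and 5 counts in these cytosol libraries and 3, 3 and 10 in the granule libraries, where the detection floor is 3. It would not have entered this fit without its arsenite libraries.

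With arsenite, 6 of 8 members were higher in WT granules than in WT cytosol, against 35.0% of all genes, and 3 of 8 in WDM, against 36.3%. Every WT granule library exceeded every WT cytosol library for 7 members, all but KLF10, against 37.8% of all genes. These include KLF2, which was not called (adjusted p = 0.1245). KLF2 would not have entered this fit without its arsenite libraries, those of WT granules among them, so its place in this count is partly set by the filter. In WDM this held for KLF5, KLF9 and KLF13, 3 of 8 against 37.6%, and for KLF2 every WDM granule library was lower, 1 of 8 against 35.3%. KLF13 had the largest difference of the 8 in both lines. Its WT cytosol libraries were at 25.2, 22.8 and 28.0 CPM and its WT granule libraries at 80.9, 79.3 and 87.6 CPM, a log2 difference of 1.70 (SE 0.1528, adjusted p = 7.408e-11). In WDM it was 1.67 (SE 0.1507, adjusted p = 8.415e-11). KLF9 followed, at 1.11 in WT (adjusted p = 3.723e-07) and 0.60 in WDM (adjusted p = 0.0009968), and KLF5 at 0.78 (adjusted p = 0.0002643) and 0.50 (adjusted p = 0.009937). KLF11 (0.62, adjusted p = 0.001145), KLF6 (0.50, adjusted p = 0.01302) and KLF4 (0.45, adjusted p = 0.01716) were called in WT alone. KLF10 was at 0.05 in WT and -0.26 in WDM, not called.

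Single libraries moved some of these calls. In WT, KLF4 was lost without cytosol replicate 2 or 3 or granule replicate 3 (adjusted p 0.08266 to 0.118), and KLF6 without cytosol replicate 2 or 3 or granule replicate 1 (0.0749 to 0.1181). In WDM, KLF5 was lost without granule replicate 2 (0.07971), KLF10 was called lower without granule replicate 3 (0.0317), and KLF6 was called higher without cytosol replicate 1 (0.04831). No member's granule difference differed between the lines by test, with or without arsenite, against 0.00551% of all genes in each. KLF9 with arsenite had an unadjusted p under 0.05 (-0.51, adjusted p = 0.7409), no other member did, and DESeq2 called none.

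**Figure D4:**
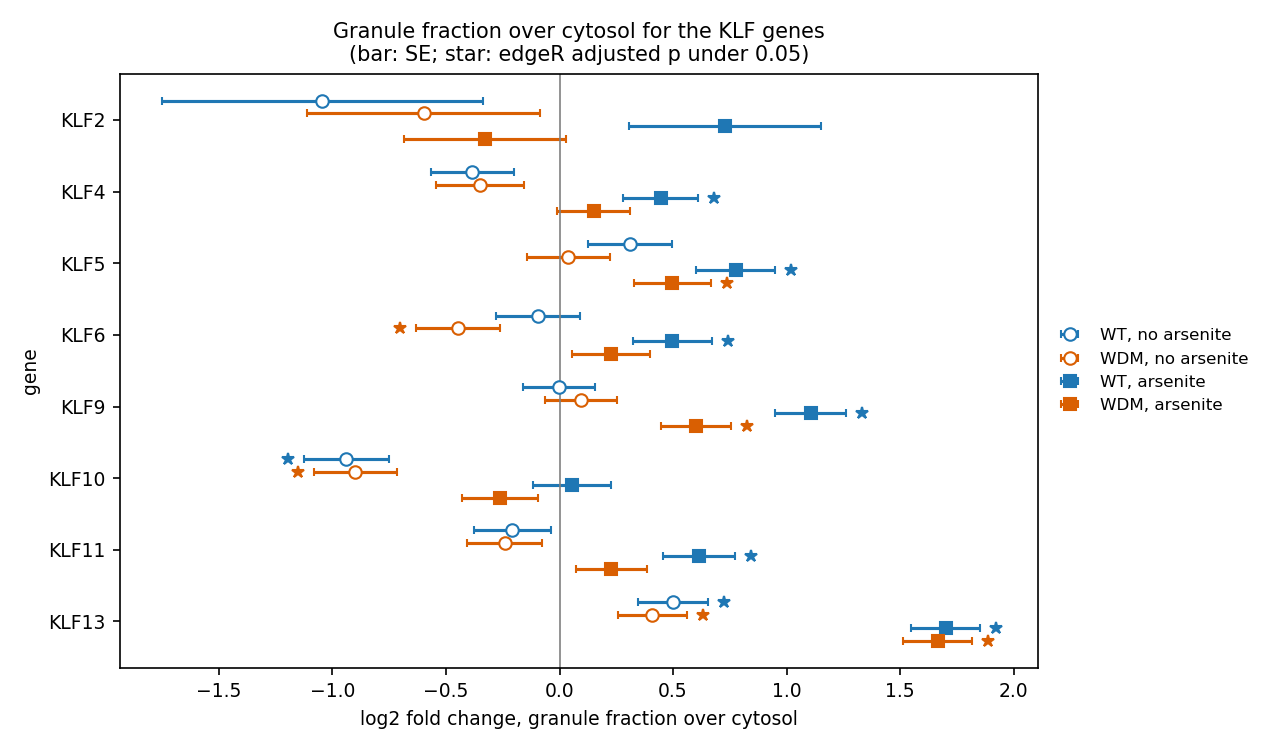
Log2 fold change of granule fraction over cytosol (horizontal axis; bar is the SE) for each KLF gene, without arsenite (open circles) and with it (squares), with a star where the edgeR adjusted p was under 0.05. The squares lie to the right of the circles of the same line for all 8 genes, and KLF13 with arsenite is farthest right, at 1.70 in WT and 1.67 in WDM.

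The change of this granule difference with arsenite was tested as an interaction. In WT 5 of 8 members were called, all upward, against 12.0% of all genes upward. They were KLF13 (1.20, SE 0.2148, adjusted p = 0.0001738), KLF9 (1.11, SE 0.2222, adjusted p = 0.0004978), KLF10 (0.99, SE 0.2532, adjusted p = 0.003804), KLF4 (0.83, SE 0.2468, adjusted p = 0.01152) and KLF11 (0.82, SE 0.2321, adjusted p = 0.007955). KLF2 (1.77, adjusted p = 0.1016), KLF6 (0.59, adjusted p = 0.07539) and KLF5 (0.47, adjusted p = 0.1631) were not called, and KLF6 was called without cytosol arsenite replicate 1 (0.02389). In WDM only KLF13 was called (1.26, SE 0.2115, adjusted p = 0.0001852), 1 of 8 against 7.66% of all genes upward. KLF6 (0.67, adjusted p = 0.05003), KLF10 (0.64, adjusted p = 0.05971) and KLF9 (0.51, adjusted p = 0.09233) were short of the threshold, and KLF2 (0.27), KLF4 (0.50), KLF5 (0.46) and KLF11 (0.47) were not called either. KLF6 was called without cytosol arsenite replicate 1, cytosol tetracycline replicate 3, granule arsenite replicate 1 or granule tetracycline replicate 2 (0.01479 to 0.04894). KLF10 was called without cytosol arsenite replicate 3, granule arsenite replicate 1 or 2, or granule tetracycline replicate 3 (0.03277 to 0.04502), and KLF9 without cytosol or granule arsenite replicate 1 (0.0322 to 0.04688). The median of the 8 was 0.91 in WT and 0.50 in WDM, where all genes had medians of -0.21 and -0.17. For KLF13 the same comparison combines a granule rise that was called with a cytosol value of -0.19 in WT and -0.18 in WDM that was not.

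Over the 18 cytosol libraries the members fell into a pattern that is given as a description, since the libraries share conditions and depth. KLF9 varied most like KLF13 (Pearson r 0.811 on log2 CPM) and KLF10 (0.767), and KLF6 like KLF11 (0.762). KLF4 ran opposite to KLF13 (-0.653) and KLF9 (-0.525). Of other genes with at least 5 CPM, those most like KLF4 were ADM, the gene of the peptide adrenomedullin (0.895), and NFKBIA, an inhibitor of NF-kappa-B (0.88). Most like KLF10 was TXNIP, a thioredoxin-binding protein gene (0.932), and most like KLF5 was HERPUD1, an endoplasmic reticulum stress gene (0.916). For the remaining members these genes were PHF13 for KLF6 (0.929), DICER1-AS1 for KLF9 (0.953), IGF2BP3 for KLF11 (0.913) and TBC1D16 for KLF13 (0.925). KLF2, at its low counts, had UBE2D4 (0.791).

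The rest of the family and its relatives were read with the same tests. Here and in the lists below, calls with arsenite over tetracycline are read against the shares of all genes. In cytosol 13.7% were higher and 15.4% lower in WT, and 14.1% and 14.8% in WDM. In granules 16.5% were higher and 14.1% lower in WT, and 18.7% and 17.7% in WDM. Of 10 other KLF genes 6 were tested in the granule fraction. In WT granules KLF3, a repressor, was the 1 gene called (0.75, adjusted p = 0.001525), and in WDM granules KLF16 rose by 0.61 and KLF12 fell by 0.49 on the log2 scale. Medians were 0.15 and 0.28, below the 1.11 and 1.07 of the 8 members, a difference that was not tested. Of 9 SP genes, which encode the closest relatives of the KLF proteins, 7 were tested. With arsenite 5 of 7 rose in WT granules and 4 in WDM granules, with medians of 0.99 and 1.04. SP9 rose by 1.33 (adjusted p = 0.0002457) in WT and 1.47 (adjusted p = 5.291e-05) in WDM, and SP3 by 0.99 (adjusted p = 0.0001581) in WT. In cytosol SP2 rose by 0.58 and 0.66 in the 2 lines and SP3 fell by 0.27 in WT.

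Immediate-early genes, the classic first wave of stimulus-induced transcription, had larger median changes in cytosol than the 8 KLF genes, a difference that was not tested. Of 18, 13 rose and 1 fell in WT cytosol (median 0.96), and 15 rose and 1 fell in WDM cytosol (median 1.40). EGR1 rose by 6.07 on the log2 scale in WT cytosol (adjusted p = 1.532e-13) and FOS by 4.93 (adjusted p = 6.519e-09). In granules 17 of 18 rose in each line, with medians of 1.13 in WT and 1.66 in WDM. In WT granules the median of the 8 KLF genes, 1.11, was close to that of this list. For the interaction of fraction and arsenite in WT, 4 immediate-early genes were called upward and 4 downward (median -0.21). Of all genes 12.0% were called upward and 19.4% downward there.

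Genes upstream of KLF2 and KLF4, the MEK5, ERK5, MEF2 and cerebral cavernous malformation group, were tested for 9 of 11. In cytosol 3 rose in WT and 2 in WDM, against 13.7% and 14.1% of all genes, and none fell. MEF2D, a MEF2 factor, rose by 0.75 (adjusted p = 0.01493) in WT cytosol and 0.93 (adjusted p = 0.003484) in WDM cytosol, and by 0.87 and 1.61 in WT and WDM granules. In granules 3 genes fell in each line, against 14.1% of all genes in WT and 17.7% in WDM. Among them MAP2K5, which encodes MEK5, fell by 0.68 in WT and 0.76 in WDM. MAPK7, which encodes ERK5, rose by 1.04 (adjusted p = 0.0008265) in WDM granules.

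TGF-beta pathway genes, upstream of KLF10 and KLF11, were tested for 13 of 14. In cytosol 1 rose and 1 fell in each line, against 13.7% and 15.4% of all genes in WT and 14.1% and 14.8% in WDM. The ligand gene TGFB2 rose by 0.64 (adjusted p = 0.0041) in WT and 0.93 (adjusted p = 0.0002253) in WDM, and the receptor gene TGFBR1 fell by 0.54 and 0.32. In granules 5 rose and 1 fell in WT (median 0.45), and 7 rose in WDM (median 0.56). TGFBR1 rose by 1.15 in WT granules and SKI, a repressor of the pathway, by 1.06 in WDM granules.

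Cofactors and regulators of the KLF proteins were measured too. Of 10 cofactor genes, 3 rose in WT granules (EP300 0.86, CREBBP 0.58, SIN3A 0.54). In WDM granules 4 rose and 1 fell, with EP300 at 1.38, CREBBP at 1.31 and SIN3A at 0.72. None rose in cytosol with arsenite over tetracycline, where 1 fell in WT and 3 in WDM. Of 8 ubiquitin ligase subunit genes, 3 rose and 1 fell in WT cytosol, and 4 rose and 1 fell in WDM cytosol. FBXW7, which targets KLF2 and KLF5 proteins, rose by 0.55 (adjusted p = 0.001773) in WT and 0.54 (adjusted p = 0.001991) in WDM. VHL, a subunit that acts on KLF4 protein, fell by 0.40 and 0.48.

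Textbook targets of these factors were tested for 7 of 10. None was called in WT cytosol, and in WDM cytosol 1 was, the growth factor gene PDGFA, which fell by 0.52 (adjusted p = 0.02447). In granules 4 rose and 1 fell in WT (median 0.52), and 3 rose in WDM (median 0.62). S1PR1, a KLF2 target that encodes a sphingosine-1-phosphate receptor, rose by 1.11 in WT granules and 0.62 in WDM granules. Of 7 tested genes for proteins that bind AU-rich elements, 4 rose and none fell in the cytosol of each line. ZFP36 rose by 2.04 (adjusted p = 1.468e-05) in WT cytosol and 2.77 (adjusted p = 3.135e-07) in WDM cytosol. TIAL1, the paralog of TIA1, rose by 0.63 and 0.79.

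Each member lies at the position that GENCODE 44 gives it on GRCh38. KLF2 (ENSG00000127528) is at chr19:16324826-16328685, KLF4 (ENSG00000136826) at chr9:107484852-107490482, KLF5 (ENSG00000102554) at chr13:73054976-73077541 and KLF6 (ENSG00000067082) at chr10:3775996-3785281. KLF9 (ENSG00000119138) is at chr9:70384604-70414657, KLF10 (ENSG00000155090) at chr8:102648784-102655725, KLF11 (ENSG00000172059) at chr2:10042849-10054836 and KLF13 (ENSG00000169926) at chr15:31326835-31435665. Counts are over whole genes, and the counter's strand setting is not given in the sources used here. An unnamed gene on the opposite strand (ENSG00000289987) covers 357 exon bases of KLF4, or 9.75%, and another (ENSG00000271787) covers 416 exon bases of KLF11, or 9.06%. Reads from those stretches cannot be told apart here, and the other 6 members share no exon base with another gene.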

How the data were processed

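The authors deposited 1 table of unnormalized read counts, with genes in rows and libraries in columns. The submitters' processing notes name Trimmomatic, STAR, Picard, featureCounts and GRCh38; versions, annotation release, strand setting and overlap handling are not given in the sources used here. Libraries were stranded total RNA after rRNA removal, per the labels. The 8 genes and the gene lists were chosen with earlier results of these data known.

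Tests used edgeR 4.0.16 (R 4.3.3) on these counts: filterByExpr (minimum count 10, total 15), TMM factors, robust quasi-likelihood group-means fits, Benjamini-Hochberg adjustment over all genes tested, calls at an adjusted p under 0.05. The fits held 18 cytosol libraries (16670 genes), 12 granule libraries (18366) and 24 libraries for fractions (18141), for 24 comparisons. SE is the absolute log2 fold change over the square root of F. The script was tested on simulated data. CPM used TMM factors over 30 libraries; per-kb levels used GENCODE 44 exon lengths. Replicates of a group differed beyond sampling noise (chi-square per degree of freedom 1.63 to 40.7). Any of the 8 genes may be named in each comparison; of a list, up to 4 called genes with the largest change and a mean of at least 5 CPM. Each result was refitted with DESeq2 1.42.0, with RLE factors, without scaling factors, without the filter, with a block for the replicate number, on only the compared groups, and with single libraries left out. Same-numbered libraries correlated over 0.1 in all 3 pairs of the compared groups in 2 of 17 comparisons of 2 groups: arsenite in WDM granules (r 0.108 to 0.464) and WDM granules over cytosol with arsenite (0.311 to 0.568). The labels do not say what a number stands for; these 2 were also fitted with a block within the compared groups, an alternative chosen after seeing the data. Figures used matplotlib 3.10.9.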

Additional observations from a re-analysis of the deposited data

Results flagged for a closer look

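The arsenite effect differed between granule fraction and cytosol by the interaction test for 6 results. In WT these were KLF13 (1.1996 on the log2 scale), KLF9 (1.1077), KLF10 (0.9933), KLF4 (0.8287) and KLF11 (0.8234), and in WDM KLF13 (1.2564). In each the log2 difference of granules minus cytosol was shifted upward with arsenite, in WT from -0.94 to 0.05 for KLF10, from -0.38 to 0.45 for KLF4 and from -0.21 to 0.62 for KLF11. The nuclear and abundant cytosolic RNAs moved in the same interaction, with medians of -1.46 and -0.64 in WT and -0.89 and -1.07 in WDM, and their part in these values was not tested.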

How the results depend on the processing

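Of 2637 refitted fold changes of the 8 genes over all alternatives, 2519 stayed on their side of the threshold, 67 lost a call, 51 gained one and 0 reversed a called direction; 97 changed sign without a call in either fit. With 1 library left out, 8 of 8 members stayed called in WT granules and 7 to 8 in WDM granules with arsenite. The counts of 8 include KLF2, which entered this fit only through its arsenite libraries. For WDM cytosol with arsenite the members called were 2 to 4, and for WT cytosol 0 to 1. Against untreated cells they were 3 to 5 in WT and 4 to 7 in WDM. For tetracycline alone they were 0 to 2 in WT and 1 to 2 in WDM. Between lines in cytosol they were 0 untreated, 0 to 1 with tetracycline and 1 to 4 with arsenite. Between fractions without arsenite they were 2 in WT and 2 to 4 in WDM, with arsenite 4 to 6 and 2 to 4, and for the interaction 5 to 6 and 1 to 4. Calls over all genes moved too when 1 library was left out. They ran from 2490 to 5251 for arsenite in WDM cytosol. For tetracycline alone they ran from 189 to 1766 in WT and from 422 to 771 in WDM. The member counts are therefore not read against a fixed background.

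Library size alone gave 3 members called for arsenite in WT cytosol (0 with TMM), 1 for tetracycline in WT, 2 between untreated lines and 3 for the WDM interaction. No low-count filter gave 1 for arsenite in WT cytosol (KLF6) and 3 for the WDM interaction. DESeq2 gave 1 for tetracycline in WT and 3 for the WDM interaction (KLF6, KLF10 and KLF13), and RLE factors gave 2 between untreated lines and 2 for the WDM interaction. With only the compared groups in the fit, 5 members differed between untreated lines, 0 with tetracycline and 1 with arsenite. The cause of these changes was not tested. The share of all genes called under each of these settings, and under the replicate blocks below, is not given here. These counts therefore show only how member calls moved, and are not read against a background.

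Over all pairs of groups, same-numbered libraries correlated at r -0.3 to 0.568. With the replicate block in the whole fit, 1 member was called for arsenite in WT cytosol (KLF6), 2 for tetracycline in WT cytosol (KLF9 and KLF13) and 2 for the WDM interaction (KLF6 and KLF13). In the granule fraction it called 8 members in WT and 7 in WDM, as without the block. The block within the compared groups, chosen after seeing the data, called 8 in WDM granules with arsenite (KLF2 added) and 3 between WDM fractions with arsenite, where it changed no call. Over all genes, leaving out 1 library moved the calls for arsenite in WT cytosol between 2440 (without tetracycline replicate 3) and 7204, so the background shares depend on single libraries as well. KLF2, with 1 to 23 counts per library, is limited by depth. It entered the granule fit only through its arsenite libraries, and would not have entered the cytosol fit or the fit of both fractions without such libraries.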
